A study of Mus musculus with 6 samples.

Results

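The C/EBP family consists of 6 basic leucine zipper (bZIP) genes, *Cebpa*, *Cebpb*, *Cebpd*, *Cebpe*, *Cebpg* and *Ddit3*, which were picked by symbol from the 55401 gene identifiers counted in RNA-seq of mouse subcutaneous white adipose tissue (scWAT). C/EBP proteins bind DNA as homodimers or heterodimers through their leucine zippers. In fat cell formation, C/EBPβ and C/EBPδ act early, and C/EBPα acts later with PPARγ, the nuclear receptor that keeps adipocytes differentiated. C/EBPγ and the *Ddit3* product CHOP mainly act as dimer partners, CHOP being induced when protein folding or translation is stressed, and C/EBPε is a factor of granulocyte maturation. C/EBPβ also partners with PRDM16, a zinc finger regulator of brown and beige fat, and the study asked whether the Hippo pathway coactivators YAP and TAZ affect what this pair does at *S100b*, which encodes a secreted neurotrophic protein.

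Whole scWAT was sequenced from 3 control mice, which carried floxed *Yap* and *Taz* alleles without Cre (YT-FF; the sample labels call this genotype WT), and from 3 mice of the genotype Yapfl/fl/Tazfl/fl;AdipoqCre (YT-AKO). All were males aged 8 weeks and kept at room temperature. *Adipoq* drives Cre in mature adipocytes, so the other cells of the tissue kept their alleles, and fewer cells of a type cannot be told apart from less RNA per cell. Libraries held 17740987 to 21838493 counted fragments, and 5 of the 6 members were among the 16807 genes with enough counts to be tested, *Cebpe* being the exception.

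The targeted genes were read first. In CPM, counts per 1000000 scaled by TMM factors, *Yap1* fell from 64.2 ± 6.34 (SD, n = 3) to 32.6 ± 4.52 (n = 3), with an edgeR adjusted p of 0.0179. *Wwtr1*, which encodes TAZ, rose from 83.9 ± 12.7 to 156 ± 21.5 (n = 3 each, edgeR adjusted p = 0.022) although the label names it as deleted. Directions below therefore rest on labels that its RNA level does not bear out. A count sums all exons of a gene, which exons are floxed is not given in the sources used here, and a total need not fall when an exon is removed, so the *Wwtr1* value does not show whether the deletion took place. The libraries are therefore called the libraries labelled YT-AKO. Library 2 of this group stood apart from the other libraries of its group, with a chi-square per degree of freedom of 145 to 161 against 29.1 between libraries 1 and 3, and its TMM factor was the lowest at 0.777. That library held the most counted fragments (21838493) but the fewest genes with any count, 20501 against 22810 to 24576 in the others. Of the tested genes, 2121 (12.6%) were higher and 1515 (9.01%) were lower in the libraries labelled YT-AKO at an adjusted p under 0.05, the threshold used for every call here. Scaling by library totals alone moved the median log2 fold change of all tested genes from -0.02 to -0.34, so the fold changes below are relative to TMM.

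Of the 5 tested members, 3 rose, namely *Cebpb* by a log2 fold change of 1.86, *Ddit3* by 1.65 and *Cebpg* by 0.56, against the 12.6% of all tested genes called higher. No member was called lower. *Cebpa* (0.58) and *Cebpd* (1.30) did not pass. The median over the 5 members was 1.30, beside -0.02 over all tested genes. This median is the value of *Cebpd*, which was at 0.67 without library 1 labelled YT-AKO. Stricter thresholds were 0.01 for the adjusted p and 1 for the log2 fold change. With edgeR 0.0892% of the tested genes met them in the upward direction, and 0 members were called. DESeq2 called 2 members at these thresholds, beside 7.07% of the 18938 genes to which it gave an adjusted p. All 5 tested members had an unadjusted edgeR p under 0.05, as did 6852 of the 16807 tested genes. CPM values of 4 members (*Cebpa*, *Cebpb*, *Cebpg* and *Ddit3*) lay higher in all 3 libraries labelled YT-AKO than in any YT-FF library, a pattern held by 25.7% of tested genes. The samples were separate mice, and the spread between them is what each p is measured against.

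**Figure D1:**
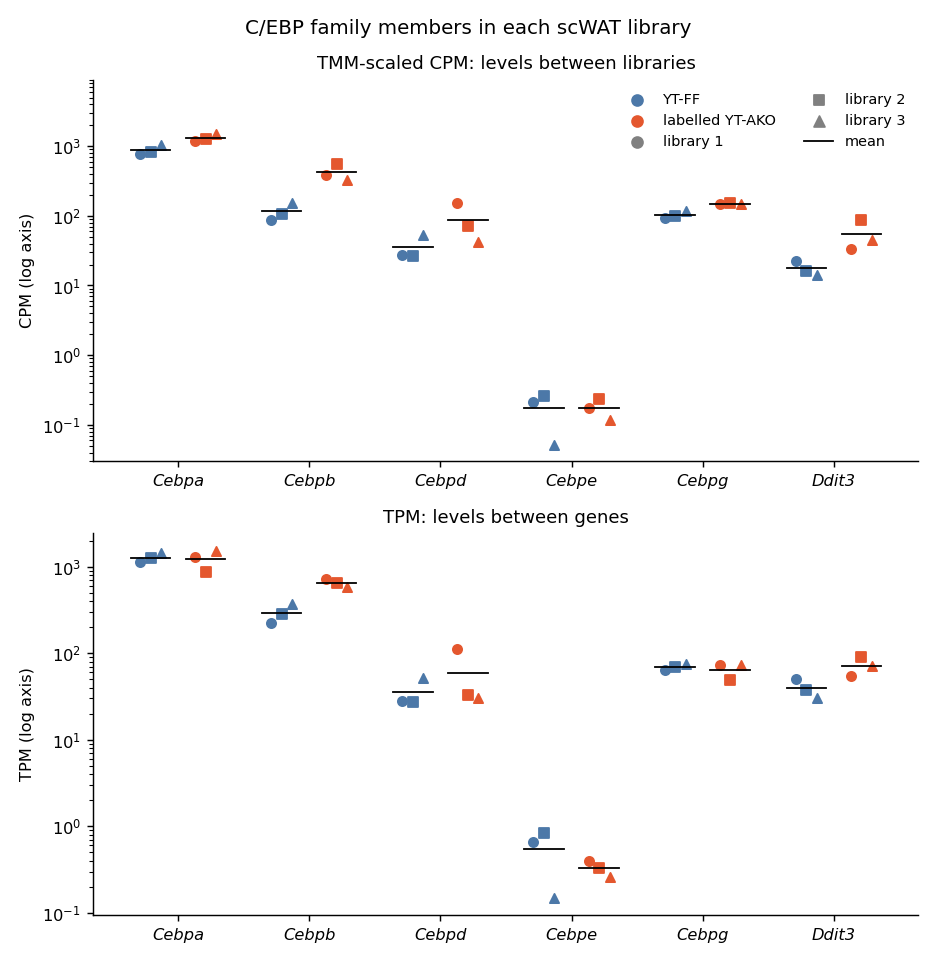
Each point is the level of a C/EBP family member in 1 library on a log axis, as TMM-scaled CPM (top) and as TPM, a level per transcript length (bottom), with YT-FF in blue, the libraries labelled YT-AKO in red, library numbers by shape and group means as bars. *Cebpb* and *Ddit3* do not overlap between the groups on either scale, *Ddit3* in TPM only narrowly (50.2 against 54.0). *Cebpa* and *Cebpg* separate in CPM but overlap in TPM, and *Cebpe* lies near 1 to 6 counts throughout. In CPM 25.7% of tested genes separate upward in this way, and the share for TPM was not counted.

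Start sites and upstream sequences of the members are given because several of them moved together and because 2 of them are close neighbours. *Cebpa* (chr7:35119293-35121928, + strand) and *Cebpg* (chr7:35046422-35056573, - strand) lie back to back on mm10, 62719 bases apart. *Cebpb* lies at chr2:167688915-167690418 (+), *Cebpd* at chr16:15887286-15891031 (+), *Cebpe* at chr14:54710360-54712174 (-) and *Ddit3* at chr10:127290774-127296288 (+). In the gene models of the files, *Cebpa*, *Cebpb* and *Cebpd* are a single exon block of 2636, 1504 and 3746 bases, *Cebpe* has 2 blocks, *Cebpg* 3 and *Ddit3* 4. The 250 bases before the RefSeq start site (GRCm38.p6) were found for 4 of the 6 members, and each is written in the direction of transcription. Both strands were searched for TTGCNNAA (C/EBP core), TGACG (the core of a cAMP response element, CRE, and part of the full CRE), TGACGTCA (full CRE), TGACTCA (AP-1 site) and TGATGNAA (C/EBP-ATF composite). The core promoter element TATAAA, known as the TATA box, and the activator site CCAAT were searched likewise, and every match is in capitals.
Cebpa: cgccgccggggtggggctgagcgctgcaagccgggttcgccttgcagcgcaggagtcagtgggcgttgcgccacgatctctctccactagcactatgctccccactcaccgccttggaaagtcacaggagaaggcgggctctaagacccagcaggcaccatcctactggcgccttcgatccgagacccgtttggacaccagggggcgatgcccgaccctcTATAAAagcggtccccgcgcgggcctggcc
Cebpg: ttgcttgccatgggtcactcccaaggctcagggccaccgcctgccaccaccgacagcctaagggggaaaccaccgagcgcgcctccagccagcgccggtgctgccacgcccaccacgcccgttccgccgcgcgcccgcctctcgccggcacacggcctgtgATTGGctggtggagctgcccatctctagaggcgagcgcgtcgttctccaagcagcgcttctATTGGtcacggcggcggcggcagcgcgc
Cebpb: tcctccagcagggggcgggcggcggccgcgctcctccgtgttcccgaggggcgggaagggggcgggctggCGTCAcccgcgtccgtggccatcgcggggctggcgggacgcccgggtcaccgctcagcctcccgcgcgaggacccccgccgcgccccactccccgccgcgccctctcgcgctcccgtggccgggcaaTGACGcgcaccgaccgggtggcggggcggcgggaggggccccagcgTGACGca
Ddit3: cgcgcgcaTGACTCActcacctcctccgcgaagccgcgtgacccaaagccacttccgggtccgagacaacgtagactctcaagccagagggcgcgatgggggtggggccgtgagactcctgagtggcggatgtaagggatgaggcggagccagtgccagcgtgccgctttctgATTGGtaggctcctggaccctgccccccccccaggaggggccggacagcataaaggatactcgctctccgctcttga
The windows are chr7:35119043-35119292 for *Cebpa*, chr7:35056567-35056816 for *Cebpg*, chr2:167688665-167688914 for *Cebpb* and chr10:127290543-127290792 for *Ddit3*. Counted back from the start site, the window of *Cebpb* held TGACG at -180, -53 and -7, a motif found in 17.8% of the 32851 upstream windows of the same length. *Cebpa* alone of these 4 held TATAAA (at -30; 12.4% of windows). *Cebpg* held CCAAT on the reverse strand at -89 and -28 and *Ddit3* at -77 (33.8% of windows), and *Ddit3* held TGACTCA at -242 (4.46%). TTGCNNAA (9.56% of windows), TGACGTCA (1.55%) and TGATGNAA (3.45%) were in none of the 4 windows. The same window of *S100b* held CCAAT at -202 and -20 and no match to the other 6 motifs. A match describes letters in a window only, and no binding was measured in these libraries.

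*Cebpb*, which encodes the partner of PRDM16 in the study's question, had the largest log2 fold change of the family with all 6 libraries (1.86, beside 1.65 for *Ddit3*). Without library 1 of YT-FF *Ddit3* was higher (1.86 against 1.69), and without library 1 labelled YT-AKO both were at 1.93. Its levels were 86.8, 106 and 155 CPM in the YT-FF libraries 1 to 3 and 392, 551 and 324 CPM in the libraries labelled YT-AKO. The groups did not overlap, and library 2 labelled YT-AKO was the highest. The mean was 116 ± 35.0 CPM against 422 ± 117 CPM (SD, n = 3 each), a 3.64-fold rise with a log2 fold change of 1.86 ± 0.289 (SE; edgeR adjusted p = 0.0177). *Cebpb* stood 211th by p and 427th by log2 fold change among the 16807 genes. The call was lost without library 1 (edgeR adjusted p = 0.11) or library 2 (0.111) of YT-FF. In TPM, a level per transcript length, *Cebpb* was at 222, 280 and 372 against 727, 643 and 587. Its exon shares 312 bases (20.7%) with *Tmem189* on the opposite strand, where fragments that touched both genes were dropped, and *Tmem189* itself had a log2 fold change of 0.17 (edgeR adjusted p = 0.495). Translation start choice gives C/EBPβ activating and inhibitory forms from the same mRNA, which RNA counts do not separate.

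*Ddit3*, whose product CHOP pairs with other C/EBP proteins and keeps them from their usual sites, rose as well. It was measured at 22.3, 16.1 and 14.3 CPM in the YT-FF libraries and at 33.2, 88.5 and 44.3 CPM in the libraries labelled YT-AKO. The groups did not overlap, and library 2 of the second group was the highest by a wide margin. Means were 17.6 ± 4.22 CPM and 55.3 ± 29.3 CPM (SD, n = 3 each), with a log2 fold change of 1.65 ± 0.372 (SE; 3.14-fold; edgeR adjusted p = 0.0262). Without library 2 labelled YT-AKO the log2 fold change was 1.14 and still called, whereas without library 1, 2 or 3 of YT-FF the edgeR adjusted p was 0.11, 0.125 and 0.0787. TPM values were 50.2, 37.2 and 30.1 against 54.0, 90.7 and 70.4. Exons of *Ddit3* share 68 bases (3.97%) with *Mars*, a methionyl-tRNA synthetase gene on the opposite strand that rose by a log2 fold change of 0.67 (edgeR adjusted p = 0.0238), and 105 bases (6.13%) with a second identifier of the same symbol that was at 0 counts in every library.

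*Cebpg* encodes a short C/EBP that lacks the activation domains of the others and partners with ATF4. Its counts were the least variable of the family, at 92.0, 98.3 and 116 CPM in YT-FF and 147, 155 and 149 CPM in the libraries labelled YT-AKO. The separation was small but complete in CPM. The log2 fold change was 0.56 ± 0.154 (SE; 1.47-fold; edgeR adjusted p = 0.0402), from 102 ± 12.4 to 150 ± 4.09 CPM (SD, n = 3 each). In TPM the direction turned, with 63.0, 69.2 and 74.5 against 73.2, 48.4 and 72.0 (68.9 ± 5.72 and 64.5 ± 14.0), and with library totals alone the log2 fold change was 0.23 (edgeR adjusted p = 0.303). Without library 1, 2 or 3 of YT-FF the edgeR adjusted p was 0.174, 0.176 and 0.0578, and without library 1 or 3 labelled YT-AKO 0.06 and 0.0724. The call of *Cebpg* was lost in 9 of 16 alternative fits.

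*Cebpa*, the factor of mature adipocytes, was the most abundant member in TPM. Levels in CPM were 771, 837 and 1041 CPM in the YT-FF libraries and 1205, 1288 and 1474 CPM in the libraries labelled YT-AKO. These CPM values did not overlap, but the log2 fold change of 0.58 ± 0.203 (SE) did not pass (edgeR adjusted p = 0.0724), whereas DESeq2 gave an adjusted p of 0.0301. Leaving out library 2 labelled YT-AKO gave 0.60 with an edgeR adjusted p of 0.0293. In TPM the values were 1126, 1256 and 1427 against 1276, 857 and 1522, a mean of 1270 ± 151 against 1218 ± 336 (SD, n = 3 each), so the groups overlapped and the mean was lower, not higher.

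*Cebpd*, the early partner of C/EBPβ that glucocorticoids and cytokines induce, was the tested member that varied most between libraries of a group. It was at 27.3, 26.1 and 53.2 CPM in YT-FF and at 151, 70.4 and 41.8 CPM in the libraries labelled YT-AKO. Library 3 labelled YT-AKO was below library 3 of YT-FF, so the groups overlapped, and library 1 labelled YT-AKO was the highest. The log2 fold change was 1.30 ± 0.482 (SE; edgeR adjusted p = 0.084) and 0.67 without library 1 labelled YT-AKO, and it was called at 1.64 without library 3 labelled YT-AKO (edgeR adjusted p = 0.0444). It was called with DESeq2 (adjusted p = 0.0181). Exons of *Cebpd* share 562 of their 3746 bases with *Spidr* on the opposite strand. Muscle markers moved with library 1 labelled YT-AKO too, their summed level being 3137 CPM there and 118 to 450 CPM in the other 5 libraries. The part of this in the *Cebpd* values was not tested.

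*Cebpe*, the granulocyte member, was covered by 5, 6 and 1 fragments in the YT-FF libraries 1 to 3 and by 3, 4 and 2 in those labelled YT-AKO, at or near the floor of 3 counts (0.128 to 0.177 CPM), so no fold is given. No difference was detectable at this depth. Markers of neutrophils and their granules summed to 15.6 to 45.9 CPM in YT-FF and lay within that range in the libraries labelled YT-AKO, with 0 of their 9 tested genes called by edgeR, 1 by DESeq2 and 2 at an unadjusted edgeR p under 0.05.

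**Figure D2:**
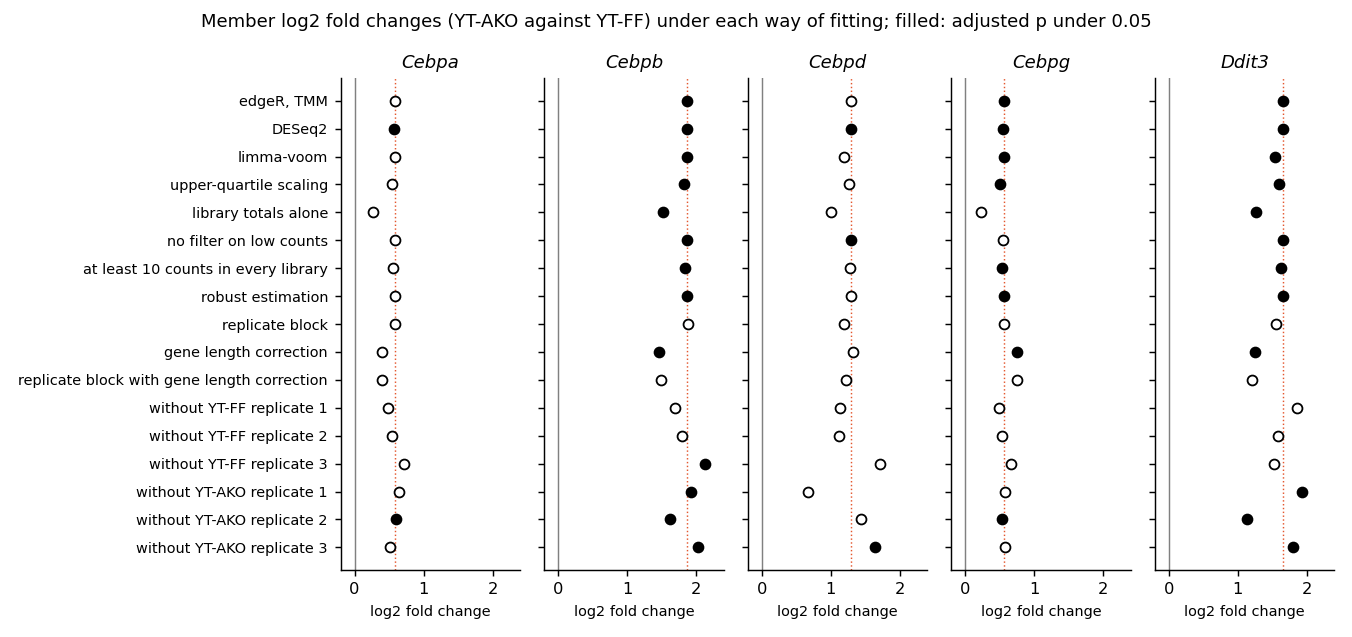
Log2 fold changes (x axis, log2 units) of the 5 tested members under edgeR with TMM (top) and 16 alternatives (rows), filled where the adjusted p was under 0.05 and with a dotted line at the edgeR and TMM value. Every point lies above 0, from 0.23 for *Cebpg* with library totals alone to 2.13 for *Cebpb* without library 3 of YT-FF, while the calls were lost without library 1 or 2 of YT-FF and under both fits with the replicate block.

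Every one of the 5 tested members kept a positive log2 fold change in the 16 alternative fits, and the calls depended on the fit. Without library 1 or 2 of YT-FF no member was called, and in these fits the calls over all genes dropped to 0 and 2, with 4665 and 4507 genes at an unadjusted p under 0.05. A correction for gene length in each library gave log2 fold changes of 1.46 for *Cebpb*, 1.25 for *Ddit3*, 0.75 for *Cebpg* and 0.40 for *Cebpa*, and the first 3 were still called.

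*Cebpb* took a larger share and *Cebpa* a smaller share of the family's transcripts in the libraries labelled YT-AKO. *Cebpa* gave 75.6%, 75.2% and 73.0% of the summed family TPM in YT-FF and 56.9%, 51.2% and 66.7% in the libraries labelled YT-AKO. *Cebpb* gave 14.9%, 16.8% and 19.0% and then 32.4%, 38.5% and 25.7%. Neither set of shares overlapped between the groups, nor did those of *Cebpg* (4.23%, 4.14% and 3.81% against 3.26%, 2.89% and 3.15%). Shares of this kind do not depend on the scaling of a library. They have a common total, so a larger share of *Cebpb* leaves less for the other members. The correction for gene length in each library was not applied to the shares. Mean shares were 74.6% ± 1.39 and 58.3% ± 7.81 for *Cebpa* and 16.9% ± 2.06 and 32.2% ± 6.36 for *Cebpb* (SD, n = 3 each). *Cebpg* took 4.06% ± 0.222 and 3.10% ± 0.191, *Ddit3* 2.38% ± 0.923 and 3.64% ± 1.58, and *Cebpd* 2.05% ± 0.507 and 2.77% ± 1.97 (same n), and *Cebpe* was under 0.06% in every library.

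**Figure D3:**
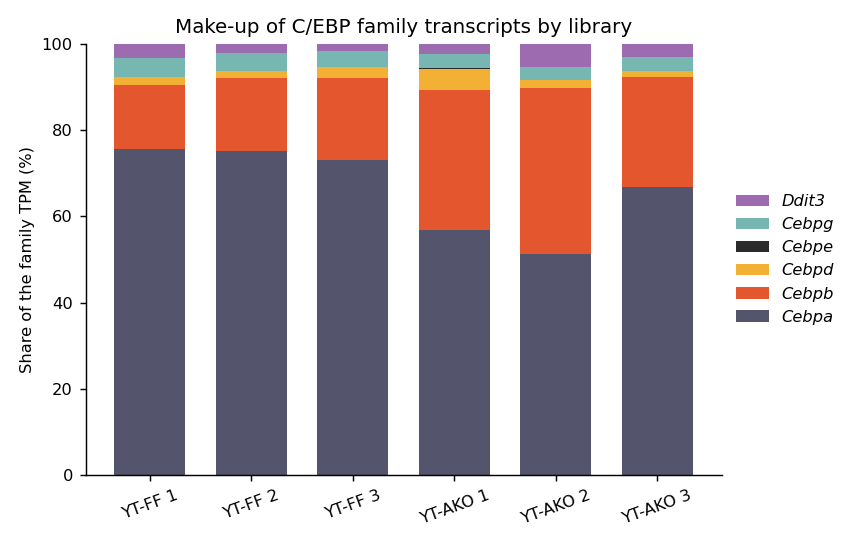
Each bar is 1 library (x axis), divided by the share in percent (y axis) that each C/EBP family member took of the TPM summed over the 6 members. *Cebpb* takes 14.9% to 19.0% in the YT-FF libraries and 25.7% to 38.5% in the libraries labelled YT-AKO, and the share of *Cebpa* is lower in the latter.

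Within a library, *Cebpa* transcripts outnumbered *Cebpb* transcripts 5.07, 4.49 and 3.84 to 1 in YT-FF and 1.75, 1.33 and 2.59 to 1 in the libraries labelled YT-AKO. The log2 ratio differed by -1.28 between the groups (2.15 ± 0.201 against 0.87 ± 0.482, SD, n = 3 each), with a two-sided exact permutation p of 0.1, the smallest that 3 against 3 allows, and 0.5 after adjustment over the 10 pairs of tested members. *Cebpb* was also higher relative to *Cebpg*, at ratios of 3.52, 4.05 and 4.99 against 9.93, 13.3 and 8.16 (log2 difference 1.31; exact permutation p = 0.1, adjusted 0.5). These were the 2 of 10 pairs whose ratios did not overlap. *Cebpa* and *Cebpg* kept nearly the same ratio in all 6 libraries, 17.9, 18.2 and 19.2 in YT-FF and 17.4, 17.7 and 21.1 in the libraries labelled YT-AKO, with a log2 difference of 0.02 (exact permutation p = 1). The ratio of *Cebpb* to *Ddit3* overlapped between the groups (log2 difference 0.32; exact permutation p = 0.5). The correction for gene length in each library was not applied to these ratios. Without it the log2 fold changes of *Cebpa*, *Cebpg* and *Cebpb* were 0.58, 0.56 and 1.86. With it they were 0.40, 0.75 and 1.46, so *Cebpa* and *Cebpg* were less alike and *Cebpb* and *Cebpg* less apart.

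In the order of TPM over 52 bZIP genes, *Cebpa* was 1st and *Cebpb* 2nd in both groups. In YT-FF, *Cebpb* was barely above *Xbp1*, a factor of the unfolded protein response, at group means of 291 and 290 TPM, which differed by less than their spread. In the libraries labelled YT-AKO *Cebpb* was at 652 TPM and *Xbp1* at 193. In CPM, however, *Xbp1* was at means of 248 and 253 (log2 fold change 0.03, edgeR adjusted p = 0.918). By TPM, *Cebpg* was 14th and then 13th, *Ddit3* 20th and then 11th, *Cebpd* 22nd and then 15th, and *Cebpe* 49th and then 50th. Among tested genes, *Cebpa* lay between percentiles 99.0 and 99.6 of TPM in the 6 libraries and *Cebpb* between 96.2 and 98.9, while *Cebpd* ranged from 62.3 to 91.9 and *Ddit3* from 67.0 to 91.6.

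Of 42 other bZIP genes tested, 8 rose, 3 fell and 31 did not pass, with a median log2 fold change of 0.16. Over all tested genes 12.6% rose and 9.01% fell, the shares to set beside this and every later list, the cell type markers included. *Nfil3*, a repressor of the PAR bZIP group, rose by 2.81 ± 0.371 (SE), and *Jund*, an AP-1 subunit, by 1.76 ± 0.303. *Bach2*, a repressor best known in lymphocytes, fell by 1.55 on the log2 scale. *Atf3*, which stress induces, rose by 1.51 ± 0.296, *Atf5* by 1.27 and *Atf4* by 0.83, each with an edgeR adjusted p under 0.05. With the gene length correction 8 rose and 1 fell.

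Of 20 tested partners and antagonists of C/EBP proteins, 5 rose (*Nfil3*, *Atf5*, *Jun*, *Atf4* and *Hdac3*) and 6 fell, with a median of 0.25. The 6 that fell were *Kmt2d* (-1.39), *Ep300* (-1.22), *Crebbp* (-0.79), *Ncor1* (-0.78), *Sin3a* (-0.73) and *Trib2* (-0.69). *Kmt2d* and the acetyltransferases *Ep300* and *Crebbp* are chromatin cofactors, *Ncor1* and *Sin3a* are corepressor subunits, and *Trib2* is a pseudokinase adaptor that sends C/EBPα for degradation. With the gene length correction 6 of the 20 rose and 0 fell, so the falls of this list were not called under that fit. *Trib1*, a related adaptor, had a log2 fold change of 0.83 ± 0.263 that did not pass (edgeR adjusted p = 0.0561). *Trib1* was called with the gene length correction (1.04, edgeR adjusted p = 0.0297) and by DESeq2 (adjusted p = 0.0241). In edgeR it was also called with no filter on low counts (0.0232) and without library 2 labelled YT-AKO (0.00499). It stayed uncalled in 12 of 16 alternative fits.

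Of 18 tested regulators that act above C/EBP genes in fat cell formation, 1 rose, 2 fell and 15 did not pass, with a median of -0.12. *Klf15*, a Krüppel-like factor that glucocorticoids induce, rose by 0.92 ± 0.217 (SE), while *Klf3* (-0.81) and *Creb1* (-0.68), the factor that binds CREs, fell. With the gene length correction 0 of the 18 fell, *Klf3* being at -0.34 (edgeR adjusted p = 0.186) and *Creb1* at -0.12 (0.56). *Nr3c1*, the glucocorticoid receptor, was at 195, 198 and 184 CPM in YT-FF and 117, 88.3 and 163 CPM in the libraries labelled YT-AKO (log2 fold change -0.64, edgeR adjusted p = 0.0772). Of 15 glucocorticoid-responsive genes, *Cdkn1a* (2.15), *Mt1* (1.76) and *Klf15* rose and 0 fell. *Fkbp5* (0.95, adjusted p = 0.0661) and *Tsc22d3* (0.57, adjusted p = 0.285) did not pass in edgeR. *Fkbp5* was called by DESeq2 (adjusted p = 0.0198) and by edgeR with no filter (0.0231), with the gene length correction (1.34, adjusted p = 0.0322; 4 of the 15 genes then rose) and without library 2 labelled YT-AKO (0.0239). *Fkbp5* was highest in library 1 labelled YT-AKO at 386 CPM, the library with the highest *Cebpd*.

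A list of immediate-early genes, the kind that handling and stimulation induce within minutes, was read beside *Cebpb* and *Cebpd*, which belong to that kind of gene. Of its 25 tested genes, *Jund*, listed as an AP-1 subunit, *Atf3* and *Jun* (1.18) rose and *Egr3* fell (-1.18). Of all tested genes 12.6% rose and 9.01% fell. The other 21 of the list did not pass, among them *Fos* (0.16, edgeR adjusted p = 0.804) and *Egr1* (-1.08, adjusted p = 0.073). The median of the list was 0.11.

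*Ddit3* belongs to the stress genes. Of 23 tested genes of the integrated stress response, the program in which ATF4 and CHOP act, 9 rose and 2 fell, with a median log2 fold change of 0.55. *Gdf15*, a stress cytokine, rose by 2.36 ± 0.483 (SE), *Nupr1* by 1.24 ± 0.293 and *Trib3*, a pseudokinase that CHOP and ATF4 induce, by 1.14 ± 0.241. The amino acid genes *Asns* (0.77), *Slc3a2* (0.72) and *Aars* (0.66) rose, while the amino acid transporter *Slc7a5* (-0.96) and the kinase *Eif2ak4* (-0.89) fell. *Atf4* was at 100, 111 and 131 CPM in YT-FF and 211, 210 and 188 CPM in the libraries labelled YT-AKO, with no overlap. Of 20 genes of the unfolded protein response, 6 rose and 2 fell, with a median of 0.05. The folding factors *Creld2* (1.30), *Manf* (1.24), *Pdia6* (0.98), *Sdf2l1* (0.98), *Hspa5* (0.79) and *Calr* (0.61) rose, and the sensor *Ern1* (-0.86) and *Edem1* (-0.57) fell. Under the gene length correction 3 of these 20 rose and 0 fell, whereas the integrated stress response count stayed at 9 and 2. The genes changed, however, with *Asns* no longer called (0.60, edgeR adjusted p = 0.0535) and *Psat1* called instead (0.63, edgeR adjusted p = 0.0468).

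Adipocyte genes that C/EBPα and PPARγ are known to drive were called in 6 of 20 cases, and 0 fell. *Cfd*, the complement factor adipsin, rose by 2.39 ± 0.430 (SE), *Adig* by 2.16 ± 0.423, *Fabp4*, a fatty acid carrier, by 1.34 ± 0.395 and *Agpat2*, an enzyme of triglyceride synthesis, by 0.99 ± 0.199. *Lipe* (0.84) and *Pnpla2* (0.79), the lipases of fat mobilisation, rose as well. *Adipoq* (0.43, edgeR adjusted p = 0.176), *Pparg* (0.29, adjusted p = 0.496) and *Lep* (-0.13, adjusted p = 0.831) did not pass. The median was 0.38. With the gene length correction 3 of the 20 were called, and with library totals alone their median was 0.08.

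Acute-phase genes, which C/EBPβ and C/EBPδ are known for in liver and in inflamed tissue, had 4 of 19 tested members higher and 1 lower, with a median of 0.40. *Saa3* rose by 3.64 ± 0.796 (SE) from a low level, 0.298, 0.482 and 0.617 CPM in YT-FF and 12.5, 3.36 and 1.65 CPM in the libraries labelled YT-AKO. *Lcn2* (2.11), *Serpina3n* (1.57) and *Lrg1* (1.44) rose, and *Lbp* fell (-1.23). With the gene length correction 3 rose and 1 fell. *Hp* (0.54, edgeR adjusted p = 0.224), *Socs3* (0.40, adjusted p = 0.531) and *Stat3* (-0.17, adjusted p = 0.519) did not pass.

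The PRDM16 axis had 2 of 12 members called, both higher, beside the 12.6% of all tested genes called higher. Its median log2 fold change was 0.03, beside -0.02 over all tested genes. *S100b* was at 3.91, 3.55 and 8.64 CPM in YT-FF and 89.0, 218 and 148 CPM in the libraries labelled YT-AKO, a log2 fold change of 4.82 ± 0.482 (SE; edgeR adjusted p = 0.00851), and *Ucp1*, the uncoupling protein of thermogenic fat, rose by 5.27 ± 0.513 (edgeR adjusted p = 0.00782). *Prdm16* itself was at 21.1, 27.2 and 19.4 CPM and then at 21.5, 21.3 and 13.0 CPM, with a log2 fold change of -0.28 (edgeR adjusted p = 0.413). *Ppargc1a*, the coactivator PGC1α, had a log2 fold change of 0.02 (adjusted p = 0.965).

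**Figure D4:**
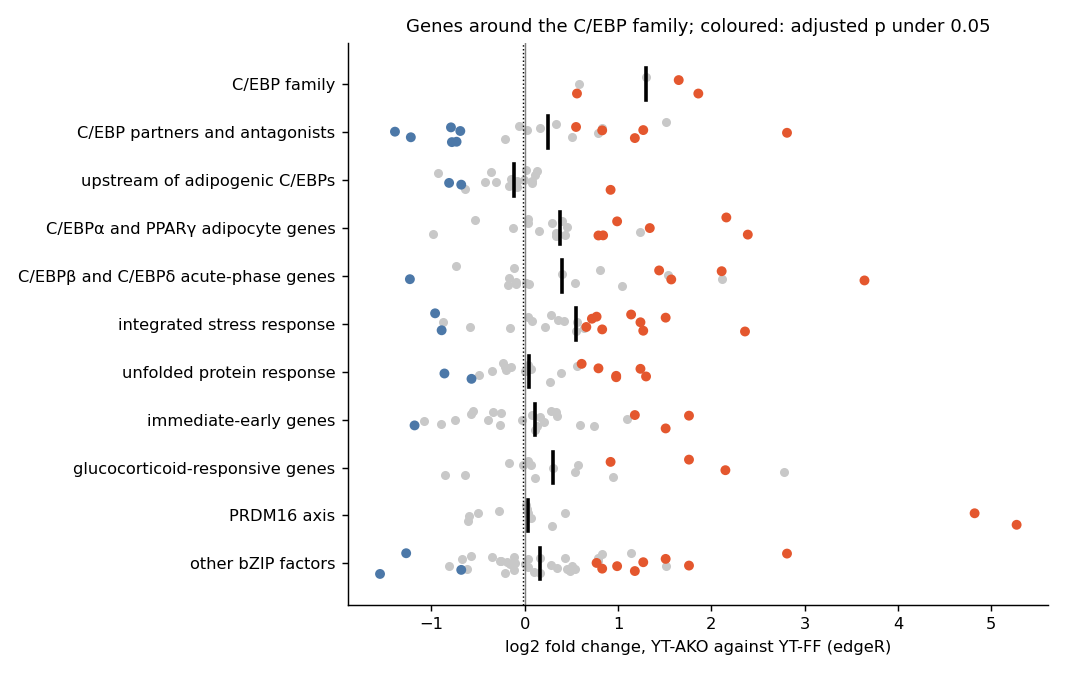
Points are edgeR log2 fold changes (x axis, log2 units) of the tested genes of each list (rows), coloured red or blue where the adjusted p was under 0.05, with the list median as a bar and the median of all tested genes as a dotted line. Of the lists plotted, which leave out the cell type markers, the C/EBP family has the highest median at 1.30 and the integrated stress response follows at 0.55, while the regulators above C/EBP genes lie at -0.12. The C/EBP median is over 5 genes and is the value of *Cebpd*, which was not called. Without library 1 labelled YT-AKO *Cebpd* was at 0.67.

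Markers of the cells in the tissue were read beside these results. Adipocyte markers summed to 17468 to 22957 CPM in YT-FF and 39341 to 81655 CPM in the libraries labelled YT-AKO, with 4 of 8 called higher. Most of this sum was *Cfd* (mean 5528 and 28904 CPM) and *Fabp4* (5197 and 13181 CPM), while *Adipoq*, *Plin1* (0.36), *Cidec* (0.40) and *Lep* did not pass, and 2 of the 8 were called with the gene length correction. Macrophage markers summed to 1278 to 1460 and 1965 to 2726 CPM, with 4 of 10 called higher in either fit. Fibroblast and preadipocyte markers summed to 4988 to 6329 and 5939 to 9411 CPM (3 higher and 1 lower of 10), and B cell markers to 1793 to 2201 and 1155 to 1947 CPM (3 of 7 lower). Endothelial and T cell markers had 1 lower each, muscle markers 1 higher, and those of neutrophils, Schwann cells and the brown depot 0 called by edgeR. With the length correction 5 fibroblast and 1 endothelial marker were higher, 0 endothelial markers lower and 0 muscle markers called. Of the epithelial markers 2 of 7 were tested, *Krt5* was at 0 in every library, and so was the brown depot marker *Zic1*. Macrophages and adipocytes both express *Cebpa* and *Cebpb*, and the part of these shifts in the family's values was not tested.

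Within 200000 bases, *Cebpa* had 9 tested neighbours, of which *Pepd*, a peptidase gene 74584 bases away, rose by 1.89 ± 0.247 (SE) besides *Cebpg*. *Pepd* ends 1713 bases from *Cebpg* on the opposite strand, with the 3′ ends of these genes facing each other. The remaining neighbours of this pair, among them *Slc7a10* (0.08), *Lrp3* (0.07) and *Gpatch1* (0.02), did not pass. Around *Cebpb* 0 of 9 tested neighbours were called by edgeR or DESeq2, and 1 had an unadjusted edgeR p under 0.05. Around *Ddit3* 3 of 17 rose, namely *Mars*, *Dctn2* (0.69) and *Arhgef25* (0.61). Around *Cebpd* *Mzt2* rose (1.35) and *Prkdc* fell (-0.61) of 3, and around *Cebpe* 3 of 15 rose. These counts stand beside the 12.6% of all tested genes that rose and the 9.01% that fell, and are a description only.

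The genes whose log2 CPM followed each member most closely over the 6 libraries, among 15179 tested genes with a mean of at least 1 CPM, are listed as a description. They were *Rmdn1* (Pearson r = 0.9994), *Lmo1* (0.9991) and *Surf4* (0.9978) for *Cebpb*, *Lap3* (0.9982), *Slc6a8* (0.9979) and *Acadm* (0.9979) for *Cebpg*, and *Hist1h2be* (0.9952), *Yif1b* (0.9948) and *Pxmp4* (0.9947) for *Cebpa*. For *Ddit3* they were *Gpx3* (0.9971), *Rem1* (0.9969) and *Wrap53* (0.9968), and for *Cebpd* *B3galt1* (0.9979), *Fam185a* (0.9913) and *Gm11827* (0.9901). The 6 points share their 2 genotypes and their libraries, and no member was among the 3 nearest of another.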

How the data were processed

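Libraries of whole scWAT (3 YT-FF, 3 YT-AKO) were assigned to groups by their genotype labels. The authors mapped reads to mm10 (GRCm38) with HISAT2 and counted fragments with featureCounts 2.0.1 on GENCODE vM25 exons, without strand and without fragments that overlapped several genes. The deposited values are raw counts per gene, and the deposited Length column, in bases of merged exons, gave TPM. Symbols were matched for 55141 of 55401 identifiers. Of the C/EBP genes, 6 of 6 were found.

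Counts were tested in R 4.3.3 with edgeR 4.0.16 (TMM, filterByExpr with a minimum count of 10 and a minimum total of 15, quasi-likelihood test, Benjamini-Hochberg over 16807 genes). The biological coefficient of variation came to 0.288. TMM factors entered the CPM values, and SE is the absolute log2 fold change over the square root of F. Ratios were tested by exact permutation (scipy 1.17.1). The pipeline was tested on simulated counts. Alternatives were DESeq2 1.42.0, limma-voom (limma 3.58.1), other scalings and filters, robust estimation, a replicate block, a spline in gene length with 6 degrees of freedom per library, and leaving out each library. The replicate libraries differed by more than sampling noise, so none was counted as a duplicate. Floors of 3 counts cover counting error only.

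The members and lists were chosen with earlier results of these data known. Named genes were all members, *Yap1*, *Wwtr1* and *S100b*, up to 4 called genes of each list with the largest log2 fold change and up to 2 that define it, and the 3 genes most like each member. Other named genes were chosen after their values were seen. Upstream sequences are from RefSeq (GRCm38.p6). Protein sequences were not used here.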

Additional observations from a re-analysis of the deposited data

How the results depend on the processing

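All 5 tested members kept a positive log2 fold change in 16 of 16 alternative fits, from 0.26 to 0.72 for *Cebpa*, 1.46 to 2.13 for *Cebpb*, 0.67 to 1.72 for *Cebpd*, 0.23 to 0.75 for *Cebpg* and 1.14 to 1.93 for *Ddit3*. The number of members called was 3 and ranged from 0 to 4 when a library was left out, 0 without library 1 or 2 of YT-FF, 1 without library 3 of YT-FF and 4 without library 2 labelled YT-AKO. It was 5 with DESeq2, which called 2843 genes higher over all, 0 with a replicate block, 0 with the block and the gene length correction, and 0 at an adjusted p under 0.01 with a log2 fold change beyond 1.

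Same-numbered libraries did not deviate together more than others. Their correlations across genes were 0.126, -0.118 and -0.0893, beside -0.14 to 0.16 for unlike numbers. No pairing by number was seen, but 3 libraries a group cannot exclude one. The replicate block is given only as a value. With the replicate block the log2 fold changes were 1.88 for *Cebpb* (edgeR adjusted p = 0.0584), 0.56 for *Cebpg* (0.0996) and 1.56 for *Ddit3* (0.0637), with the block and length correction 1.49 (0.0563), 0.75 (0.0746) and 1.20 (0.0842), and calls over all genes were 24 higher and 9 lower, or 59 and 22. The cause was not tested. With DESeq2, *Cebpa* was at 0.57 and *Cebpd* at 1.29, both past the threshold, as was *Cebpd* at 1.30 with no filter on low counts. *Cebpg* was not called at 0.55 with no filter or at 0.23 with library totals alone. When a library was left out, log2 fold changes ran from 0.49 to 0.72 for *Cebpa*, 1.62 to 2.13 for *Cebpb*, 0.67 to 1.72 for *Cebpd*, 0.49 to 0.66 for *Cebpg* and 1.14 to 1.93 for *Ddit3*. Genes called higher were 2121 and ranged from 0 to 2925 when a library was left out, and genes called lower were 1515 and ranged from 0 to 2424. With library totals alone these counts were 1137 and 2828, and with the length correction 763 were lower.

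In CPM without length the YT-FF ratios were 7.77 for *Cebpa* to *Cebpb* (4.44 in TPM), 3.35 for *Cebpb* to *Cebpd* (8.36) and 1.11 for *Cebpb* to *Cebpg* (4.15), as construction gives. The log2 ratio of *Cebpb* to *Ddit3* turned from 0.32 to -0.06 without library 1 of YT-FF and ran up to 0.68. *Pparg* turned to -0.01 with library totals alone and -0.14 without library 3 labelled YT-AKO (up to 0.51 without library 1 labelled YT-AKO), and *Prdm16* to 0.16 with the length correction and 0.11 with the block as well. Of the other named genes' values under the alternatives, 505 stayed on their side of the threshold, 179 lost it, 14 gained it and 4 reversed. The 3 libraries a group limit every exact permutation p to 0.1 or more, and *Cebpe* was too low to test.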
